A study of Sus scrofa with 2 samples.

Results

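The genes described here are the regulators of pre-mRNA splicing in PSI, a clonal line of smooth muscle cells that comes from the ileum (the distal small intestine) of the pig. Members were taken by name: the SRSF, HNRNP, PTBP, MBNL, CELF, RBFOX, ESRP, NOVA and RBPMS families, together with QKI, TIA1, TIAL1, TRA2A, TRA2B, KHDRBS1, KHDRBS3, RBM20 and RBM24. Expression was measured by RNA-seq in FPKM, which divides the fragments of a gene by its length in kilobases and by the library total, for 25880 pig gene identifiers, of which 14857 had a symbol. The rule found 52 measured genes among these. In 2 further cases, SRSF4 and HNRNPH2, the paired identifier was not among those measured, and CELF2, RBM24, HNRNPA0, HNRNPA3, HNRNPAB, HNRNPC and HNRNPF had no paired identifier, so these 9 genes were not analysed here.

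The study holds 1 group, the PSI clone grown in DMEM with 10% FBS and antibiotics, sequenced as 2 libraries with no treated, tissue or other-cell group. The labels name no separate cultures or animals for the libraries, so the SD beside a mean is the spread between these libraries and may be technical. PSI is 1 clone, and the muscle layer of the ileum itself was not sampled. The markers of the labelled cell type were mixed: 7 of 10 smooth muscle markers reached 1 FPKM in both libraries, a share near the 61.5% of all symbols, led by ACTA2 at 693 ± 11.8 FPKM, ACTG2 at 479 ± 15.0 and CNN1 at 254 ± 1.02 (SD, n = 2), with LMOD1 at 45.1 ± 0.0997, SMTN at 39.6 ± 1.14, TAGLN at 5.46 ± 0.175 and DES at 2.90 ± 0.231. MYH11 had 0.491 ± 0.0433 FPKM, SYNPO2 had 0.148 ± 0.0520, and MYOCD was listed at 0 in both libraries. The cover of the markers' exons by the deposited gene models was not tested, so low marker values such as that of TAGLN are uncertain.

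Splicing regulators decide which exons of a transcript are kept. SR proteins bind exons through RNA recognition motifs and recruit the spliceosome through domains rich in arginine and serine, whereas hnRNP proteins coat nascent RNA and often block the same sites. A further layer of factors restricted to certain tissues sets the exons of muscle, nerve or epithelium. In smooth muscle, PTBP1 is known as a repressor of regulated exons. RBPMS and MBNL1 have been linked to the splice forms of contractile cells in other species, and QKI to the splicing of myocardin. FPKM counts the reads of a whole gene model, so the levels below are those of the regulators and say nothing of which exons were used.

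The clone expressed most SR and hnRNP genes at over 10 FPKM, with SRSF12 and HNRNPL below. A main paralog held 74.2% or more of the summed level in each of the TRA2, RBPMS, RBFOX, MBNL and CELF families as measured. The level was split more evenly in the PTBP and STAR families, and no ESRP or NOVA gene nor RBM20 reached 1 FPKM in both libraries. In all, 40 of the 52 measured genes were at 1 FPKM or more in replicate 1 and in replicate 2, which is 76.9%, against 61.5% of all 14857 identifiers with a symbol and 62.5% of those that RefSeq records as protein-coding. At 10 FPKM there were 35 members, or 67.3%, against 32.8% of all, and at 100 FPKM there were 9, or 17.3%, against 2.98% of all. The median member lay at 35.9 FPKM, and the median of all symbols lay at 3.90 FPKM. On the log2(FPKM + 1) scale these medians were 5.20 for the members and 2.29 for all symbols. Members were chosen by name and many of them are used by nearly every cell, so these shares are a description with no test. Together they held 0.666% of the summed FPKM of replicate 1 and 0.669% of that of replicate 2.

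**Figure D1:**
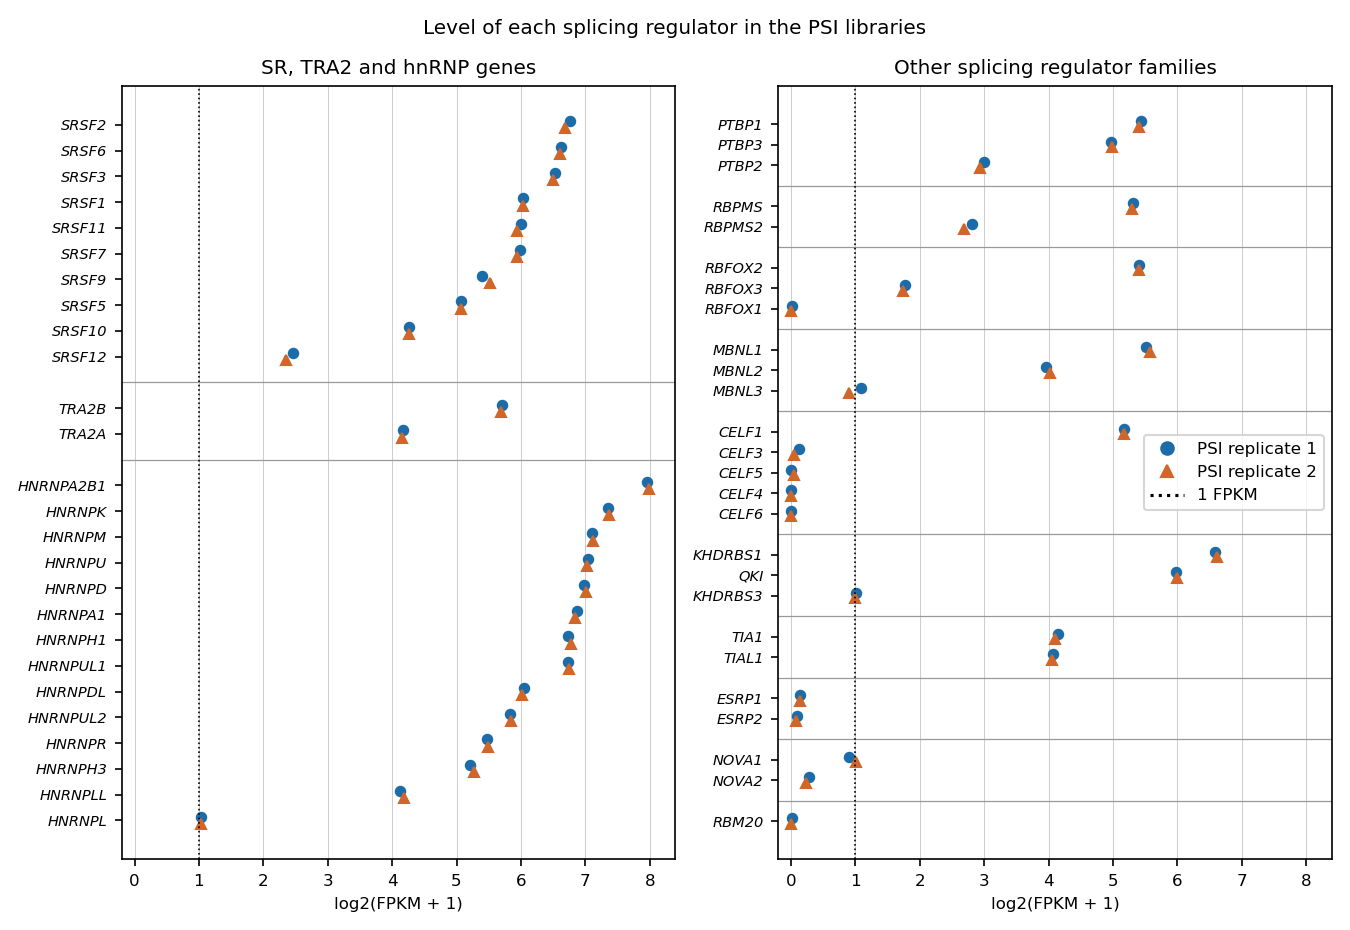
Level of each of the 52 measured splicing regulators as log2(FPKM + 1) in PSI replicate 1 (circles) and replicate 2 (triangles), grouped by family and ordered by mean, with a dotted line at 1 FPKM. SR and hnRNP genes sit mostly between 4 and 8 on this scale, and among the other families RBFOX, CELF, ESRP, NOVA and RBM20 hold members at or near 0.

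The hnRNP genes were the most abundant family, with a summed level of 1347 FPKM in replicate 1 and 1363 FPKM in replicate 2 over 14 measured members. HNRNPA2B1, which binds exonic silencers and sorts RNAs for transport, had 249 and 252 FPKM in replicates 1 and 2, and ranked 141 of all 14857 symbols. Its relative HNRNPA1, the classical antagonist of SR proteins at splice sites, had 116 and 114 FPKM. HNRNPA2B1 was thus 2.18 ± 0.0485 times HNRNPA1 (SD, n = 2). HNRNPA1-type genes have processed copies in mammalian genomes, and reads shared with such copies may have been dropped in counting, so this ratio is uncertain. HNRNPK, a binder of C-rich RNA, had 163 and 164 FPKM and came next in the order.

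HNRNPM, a binder of GU-rich RNA, had 137 and 138 FPKM, and HNRNPU, a nuclear scaffold protein whose gene RefSeq records as lncRNA, had 130.1 and 129.9 FPKM. HNRNPD, also known for the decay of AU-rich transcripts, had 125 and 128 FPKM. Its paralog HNRNPDL had 65.1 and 63.8 FPKM. These paralogs lie beside each other on chromosome 8, 34.6 kb apart, with HNRNPD at 1.96 ± 0.0663 times the level of HNRNPDL. HNRNPH1, which binds runs of G, had 105 and 109 FPKM, against 36.0 and 37.7 FPKM for its relative HNRNPH3. HNRNPUL1 had 105 and 106 FPKM and HNRNPUL2 had 56.2 and 56.8 FPKM. Each of these relatives thus kept the same order in both libraries. HNRNPR, a relative of SYNCRIP, had 43.5 and 44.1 FPKM.

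HNRNPL and HNRNPLL stood lowest in the family. Both bind CA-rich RNA, and HNRNPLL is best known from lymphocytes, where it sets the exons of PTPRC. HNRNPLL had 16.3 and 17.2 FPKM in replicates 1 and 2, and HNRNPL had 1.04 and 1.04 FPKM, from 209 and 190 recovered reads. The reads of HNRNPL fell in a counted model of 5693 bp or a multiple of it, and no other RefSeq gene overlaps its place on chromosome 6, from 47643561 to 47655856. HNRNPL is known as an abundant gene of most cells. Neither the pairing of its identifier nor the cover of its exons by the deposited model was tested, so its value is uncertain and no ratio to HNRNPLL is given. PTPRC itself was listed at 0 in both libraries.

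Along the order of the 14 hnRNP genes, 12 of 13 neighbouring pairs did not overlap between the libraries. HNRNPH1 and HNRNPUL1, at means of 107 and 106 FPKM, overlapped and were not separated.

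The 10 measured SR genes summed to 582 FPKM in replicate 1 and 573 FPKM in replicate 2, and every one of them reached 1 FPKM. SRSF2 led with 107 and 102 FPKM in replicates 1 and 2. It is the speckle protein once named SC35. SRSF6 had 97.6 and 96.4 FPKM, and SRSF3, the smallest SR protein and a link to mRNA export, had 91.7 and 89.4 FPKM. These 3 genes made up 18.1%, 16.8% and 15.7% of the summed SR level, so no SR gene dominated its family.

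SRSF1, the founding splicing factor of the family, had 64.3 FPKM in both libraries. SRSF11 had 63.0 and 60.7 FPKM, and SRSF7, which like SRSF3 joins splicing to export, had 62.1 and 60.6 FPKM. SRSF11 and SRSF7 overlapped, the sole neighbouring pair of 9 in the SR order that did. SRSF9 had 41.0 FPKM in replicate 1 and 45.0 FPKM in replicate 2, and SRSF5 had 32.7 and 32.6 FPKM. SRSF10, a repressor of splicing when it loses its phosphates in heat shock, had 18.3 FPKM in both libraries. Its close relative SRSF12 was lowest, with 4.49 and 4.10 FPKM, and SRSF10 was 4.26 ± 0.272 times SRSF12 (SD, n = 2).

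The TRA2 genes encode SR-like activators that bind GA-rich exonic enhancers. TRA2B had 51.5 and 50.7 FPKM in replicates 1 and 2, and TRA2A had 17.1 and 16.8 FPKM. TRA2B was 3.02 ± 0.00200 times TRA2A (SD, n = 2), and the libraries did not overlap between the paralogs.

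Among the polypyrimidine tract binding proteins, the repressor forms of non-neural cells were higher than the neural form. PTBP1, which binds pyrimidine-rich tracts and takes part in the choice of regulated exons of TPM1 and ACTN1 in rodent cells, had 42.1 and 41.4 FPKM in replicates 1 and 2. PTBP3, first studied in blood cells, had 30.4 and 30.8 FPKM. PTBP2, the paralog of developing neurons, whose transcript PTBP1 is known to repress through an exon skip, had 7.02 and 6.63 FPKM. The 3 genes did not overlap. PTBP1 was 6.12 ± 0.163 times PTBP2 and 1.36 ± 0.0288 times PTBP3 (SD, n = 2). PTBP1 lies on chromosome 2 from 77551562 to 77563153 in Sscrofa11.1, where its RefSeq model overlaps PLPPR3, so its value is uncertain where unstranded reads of the neighbour could be counted.

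RBPMS and RBPMS2 carry a single RNA recognition motif and form dimers. RBPMS was described in rat arterial muscle cells as a driver of the contractile splicing programme, and RBPMS2 was described in the gut muscle of the chick embryo. RBPMS had 38.6 and 38.2 FPKM in replicates 1 and 2, from 4092 and 3707 recovered reads. RBPMS2 had 6.03 and 5.47 FPKM, from 432 and 359 reads. The 2 paralogs did not overlap, and RBPMS was 6.70 ± 0.408 times RBPMS2 (SD, n = 2), with 87.0% of their summed level. RBPMS lay at nearly the level of PTBP1, with a ratio of 0.920 ± 0.00508 that shares the uncertainty of the PTBP1 value. RBPMS is on chromosome 15 from 54538583 to 54725605 and RBPMS2 on chromosome 1 from 107259302 to 107296527, and no other RefSeq gene overlaps either. The smooth muscle markers given above were unequal, from ACTA2 at 693 FPKM to MYOCD listed at 0. Any link between their levels and RBPMS was not tested.

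RBFOX2 was the main RBFOX gene. It is the broadly expressed member of a family that binds near exons in muscle and neurons, and it had 41.1 and 41.2 FPKM in replicates 1 and 2. RBFOX3, whose protein is the neuronal marker NeuN, had 2.40 and 2.32 FPKM from 328 and 291 reads. RBFOX2 was 17.4 ± 0.397 times RBFOX3 (SD, n = 2) and held 94.6% of the summed RBFOX level. RBFOX1, the form of brain, heart and skeletal muscle, was listed at 0.00707 FPKM in replicate 1, from 1 read, and at 0 in replicate 2, where 3 reads would have given 0.0232 FPKM.

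The muscleblind-like and CELF proteins act on many of the same exons in opposite ways, and their balance shifts during muscle development and in myotonic dystrophy. MBNL1 had 44.7 and 46.6 FPKM in replicates 1 and 2, and MBNL2 had 14.6 and 15.2 FPKM. MBNL3 had 1.11 and 0.859 FPKM. The 3 genes did not overlap, MBNL1 was 3.06 ± 0.00128 times MBNL2 (SD, n = 2) and held 74.2% of the summed MBNL level. CELF1, the ubiquitous CELF protein, had 34.9 and 35.0 FPKM. MBNL1 was 1.31 ± 0.0380 times CELF1 on the FPKM scale, with no overlap between the libraries.

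The other measured CELF genes, which are mostly neural, were near or at 0. CELF3 had 0.0912 and 0.0332 FPKM in replicates 1 and 2, from 3 reads and 1 read. CELF5 was listed at 0 in replicate 1, where 3 reads would have given 0.0440 FPKM, and had 0.0320 FPKM in replicate 2. CELF4 and CELF6 were listed at 0 in both. CELF1 held 99.8% of the measured CELF level, in which CELF2 has no part because it was not analysed here.

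QKI and the KHDRBS genes encode STAR proteins, RNA binders with a KH domain that answer to signalling. QKI, which acts on the splicing of myocardin in human vascular smooth muscle cells, had 61.9 and 62.4 FPKM in replicates 1 and 2. KHDRBS1, the Src substrate Sam68, had 95.4 and 97.5 FPKM. KHDRBS3, a form of brain and testis, had 1.02 and 0.990 FPKM. QKI was 1.49 ± 0.0281 times PTBP1 (SD, n = 2), while MYOCD, the gene of myocardin, was listed at 0. The ratio shares the uncertainty of the PTBP1 value. QKI lies on chromosome 1 from 4732575 to 4883386, with no other RefSeq gene across it.

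TIA1 and TIAL1 bind U-rich RNA downstream of weak donor sites and also build stress granules. TIA1 had 16.6 and 16.1 FPKM in replicates 1 and 2, and TIAL1 had 15.7 and 15.6 FPKM. They did not overlap, but TIA1 was only 1.04 ± 0.0216 times TIAL1 (SD, n = 2), the most even of the paralog pairs shown in the plot of paralog shares.

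**Figure D2:**
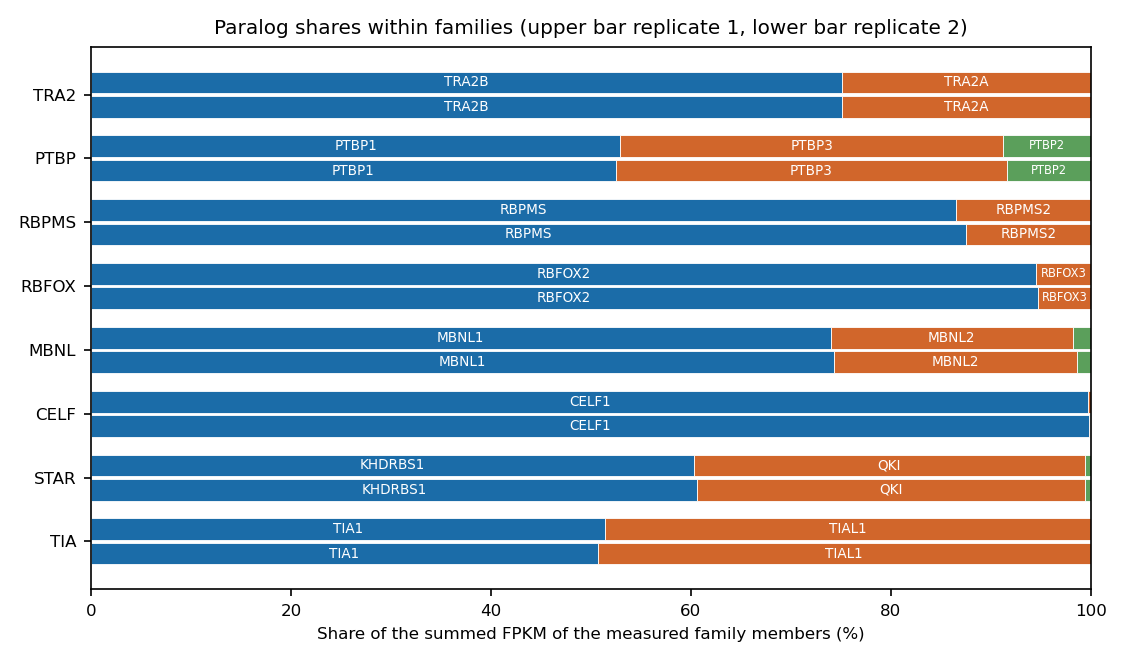
Share of the summed FPKM held by each measured member of 8 families in percent, with replicate 1 in the upper and replicate 2 in the lower bar of each pair. A single paralog holds most of the level in the CELF, RBFOX and RBPMS families, with 99.8%, 94.6% and 87.0%, while TIA1 and TIAL1 are near even at 51.0% and 49.0%.

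The ESRP, NOVA and RBM20 genes, regulators of epithelium, neurons and the heart, stood at about 1 FPKM or below, whereas the neuronal RBFOX3 stood above, as given. The epithelial regulators ESRP1 and ESRP2, which set the epithelial exons of FGFR2 and CD44, had 0.104 and 0.0968 FPKM and 0.0670 and 0.0506 FPKM in replicates 1 and 2. Counting error alone gives ESRP1 a 95% exact Poisson interval from 0.0709 to 0.139 FPKM over both libraries. Of 7 epithelial markers, 6 were listed at 0 in both libraries, among them CDH1 and VIL1, and EPCAM was listed at 0 and 0.00748 FPKM. NOVA1, a neuronal regulator, had 0.862 and 1.00 FPKM, and NOVA2 had 0.218 and 0.178 FPKM. The 6 neuronal markers summed to 0.488 FPKM in replicate 1 and 0.429 FPKM in replicate 2, none of them at 1 FPKM and the highest, SYN1, at 0.317 ± 0.0537 FPKM (SD, n = 2). RBM20, which sets the exons of titin in the heart, was listed at 0.00855 FPKM in replicate 1, from 1 read, and at 0 in replicate 2, where 3 reads would have given 0.0280 FPKM. The 6 measured striated muscle markers summed to 0.118 FPKM in replicate 1 and 0.00572 FPKM in replicate 2, led by TNNT2 at 0.113 FPKM in replicate 1 and 0 in replicate 2, with MYOD1, MYOG, PAX7 and CKM listed at 0 in both. In bulk RNA, few cells with a transcript and little transcript in each cell cannot be told apart.

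Markers of the remaining cell types were low as well. Of 4 endothelial markers, PECAM1 alone reached 1 FPKM in both libraries, at 1.76 ± 0.231 FPKM (SD, n = 2). CDH5, KDR and TIE1 were listed at 0 in both. Of 4 leukocyte markers, 2 reached 1 FPKM, CD14 at 2.29 ± 0.0775 and CD68 at 1.24 ± 0.102. CD3E and PTPRC were listed at 0 in both. Of 4 fibroblast markers, 2 reached 1 FPKM, PDGFRA at 2.24 ± 0.0149 and DCN at 2.20 ± 0.445. FAP had 0.156 ± 0.0254 FPKM, and CD34 was listed at 0 in replicate 1 and 0.00550 in replicate 2. Over all symbols, 61.5% reached 1 FPKM in both libraries. The part of these cell types in the levels of the splicing regulators was not tested.

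Other genes of splicing and its control were expressed almost throughout. The 7 lists of splicing and RNA-binding genes below were drawn up with earlier results of these data known, and 1 was named for abundance. Their shares are thus a description with no test. Over these lists, 103 of 112 measured genes reached 1 FPKM in both libraries, or 92.0%, against 61.5% of all symbols. All 31 measured genes of the core spliceosome did so, with a median of 28.7 FPKM and the highest levels in U2AF2 at 142 ± 0.627, U2AF1 at 139 ± 2.15 and SNRPE at 124 ± 1.33 FPKM (SD, n = 2). U2AF2 and U2AF1 form the dimer that reads the acceptor site, where PTBP1 competes for the pyrimidine tract. U2AF2 was 3.40 ± 0.0301 times PTBP1 and U2AF1 was 3.32 ± 0.0956 times PTBP1 (SD, n = 2). These are ratios of RNA levels, with no measure of protein or binding, and the PTBP1 value is uncertain as given above. The 7 measured genes of the minor spliceosome, which removes a rare class of introns, had a median of 5.79 FPKM and were led by SNRNP25 at 18.2 ± 2.09, ZMAT5 at 10.3 ± 1.26 and SNRNP35 at 7.86 ± 0.494 FPKM.

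SR proteins are controlled by phosphorylation, and the 8 measured genes of their kinases and importer all reached 1 FPKM, with a median of 12.2 FPKM. TNPO3, the importin that carries them into the nucleus, had 33.5 ± 0.0967 FPKM, SRPK1, the cytoplasmic SR kinase, had 27.2 ± 1.11, and DYRK1A had 16.4 ± 0.488 (SD, n = 2). The 15 measured SR-related genes had a median of 25.5 FPKM and were led by RNPS1 at 58.5 ± 0.232, SON at 55.0 ± 0.355 and BCLAF1 at 46.0 ± 1.70 FPKM. In the exon junction complex and nonsense-mediated decay, which destroys the unproductive isoforms by which many SR genes limit themselves, all 11 measured genes reached 1 FPKM, led by EIF4A3 at 79.6 ± 2.48, SMG5 at 23.0 ± 0.169 and UPF1 at 17.4 ± 0.0294 FPKM.

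Of 24 other abundant nuclear RNA-binding proteins, 22 reached 1 FPKM, with a median of 50.2 FPKM. RBM3, a cold-inducible protein, had 245 ± 1.29 FPKM, DDX5, an RNA helicase, had 206 ± 2.28, and PCBP2 had 144 ± 2.39 (SD, n = 2). RAVER2 at 0.130 ± 0.00343 and PCBP4 at 0.110 ± 0.0578 FPKM did not. RAVER1, a cofactor of PTBP1, had 32.7 ± 0.211 FPKM. It was singled out for this role after its value was seen, as the fixed rule did not name it.

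In a list of 16 other splicing regulators, 9 reached 1 FPKM, or 56.3%, close to the 61.5% of all symbols. FXR1, an RNA binder needed in muscle, had 58.8 ± 0.303 FPKM, ELAVL1, the ubiquitous Hu protein, had 40.2 ± 0.301, and RBM10 had 36.8 ± 0.735 (SD, n = 2). The neuronal relatives ELAVL3 and ELAVL4 were listed at 0 in both libraries, as were the neuronal SRRM4 and the epithelial RBM47. ELAVL2 had 0.0284 ± 0.00632 FPKM, and KHDRBS2 was listed at 0.0228 in replicate 1 and 0 in replicate 2. MSI1, a regulator of stem and neural cells, had 0.155 ± 0.0517 FPKM.

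The genes listed for smooth muscle splice forms were mostly abundant. The list also held CD44 and FGFR2, named above for their epithelial exons. Of 20 measured, 18 reached 1 FPKM in both libraries, or 90.0%, against 61.5% of all symbols. The 20 genes had a median of 113 FPKM, against 3.90 FPKM for all symbols. The list was chosen with earlier results of these data known, so this is a description with no test. FN1, the gene of fibronectin, had 1343 ± 20.2 FPKM, FLNA 868 ± 6.66 and ACTN1 654 ± 2.23 (SD, n = 2). MYH11 at 0.491 ± 0.0433 and ITGA7 at 0.118 ± 0.00114 FPKM were under the threshold. Which exons these genes used cannot be read from values per gene.

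**Figure D3:**
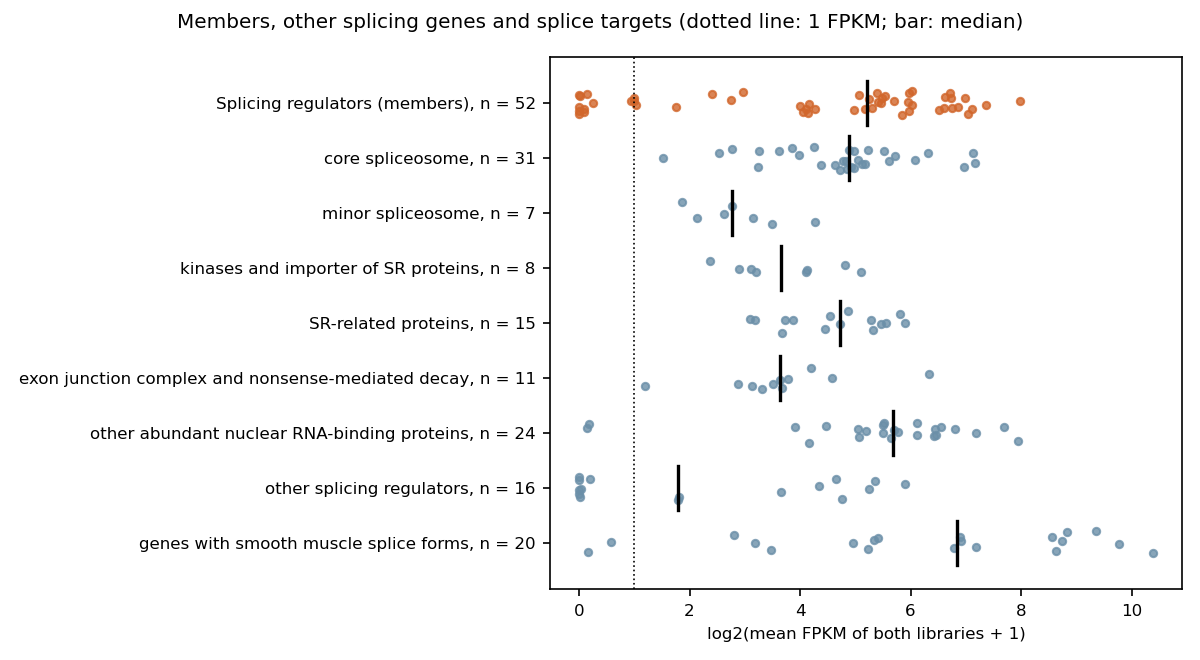
Mean FPKM over both libraries on the log2(FPKM + 1) scale for the 52 splicing regulators and for 7 lists of other splicing and RNA-binding genes. Also shown is 1 list for smooth muscle splice forms, which includes CD44 and FGFR2. Each gene is 1 point, with a bar at each median and a dotted line at 1 FPKM. Most of the regulators lie above 1 FPKM, and the points near 0 come mainly from them and from the list of other splicing regulators. The lists of core and minor spliceosome, SR kinases, SR-related and exon junction genes hold none under 1 FPKM.

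The duplicate libraries gave nearly the same levels of the splicing regulators. Among the 35 members averaging at least 10 FPKM, the median absolute log2 ratio of replicate 1 to replicate 2 was 0.02, and it was 0.04 over all 5604 genes at that level. The log2 ratios of the 35 members ran from -0.14 to 0.07, and those of all 5604 genes from -0.93 to 0.66. A two-sided exact binomial test of the recovered reads, with Benjamini-Hochberg adjustment over 16327 genes, called 1 of 50 tested members, beside 1.11% of all genes and 2.68% of the 5604 genes averaging at least 10 FPKM. That member was SRSF9, with 3621 reads in replicate 1 and 3644 in replicate 2, from totals of 35176565 and 32217729, and an adjusted p of 0.0117. HNRNPH1 came next with 11863 and 11342 reads and an adjusted p of 0.0724 by the same exact test. When the test was limited to genes averaging at least 1 FPKM, HNRNPH1 passed as well, with an adjusted p of 0.0499 by the same exact binomial test. The test sets 1 library against the other and takes reads as independent molecules, which they are not without molecular identifiers. A call thus means only a gap beyond counting error. Recovered reads may also be too few by a whole factor, which would weaken the test, so a member not called may still differ.

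**Figure D4:**
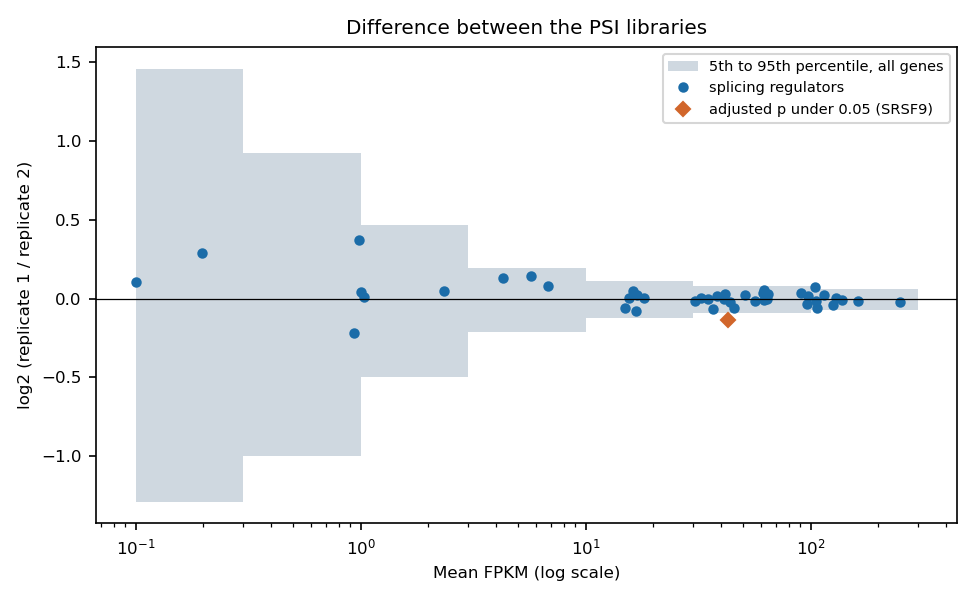
Log2 ratio of replicate 1 to replicate 2 against mean FPKM (log axis) for splicing regulators with reads in both libraries and a mean of 0.1 FPKM or more, over grey boxes that span the 5th to 95th percentile of all genes at that level. The members lie inside the boxes except SRSF9 at -0.14 and SRSF2 at 0.07.

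The members are spread over 18 chromosomes, and they differed in the length of their genes as placed by RefSeq. The 40 members at 1 FPKM or more in both libraries had a median span of 21.4 kb, against 96.2 kb for the other 12 and 28.2 kb for all 13707 symbols placed once. Spearman's rho between span and mean FPKM was -0.48 over the 52 members, -0.34 over the 40 at 1 FPKM or more and 0.04 over all placed symbols. This is a correlation across genes, which share both libraries and are not independent replicates, and paralogs share ancestry, so it is a description alone. Long genes were still among the expressed members: RBFOX2 spans 272 kb, MBNL1 204 kb, RBPMS 187 kb and QKI 151 kb. RBFOX1 spans 2271 kb. RefSeq models of 18 members overlap another gene, which makes their values uncertain. They are SRSF1, SRSF2, SRSF3, HNRNPA2B1, HNRNPD, HNRNPH3, HNRNPK, HNRNPU, PTBP1, KHDRBS1, TIAL1, MBNL3, RBFOX1, ESRP2, CELF3, CELF4, CELF5 and CELF6.

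**Figure D5:**
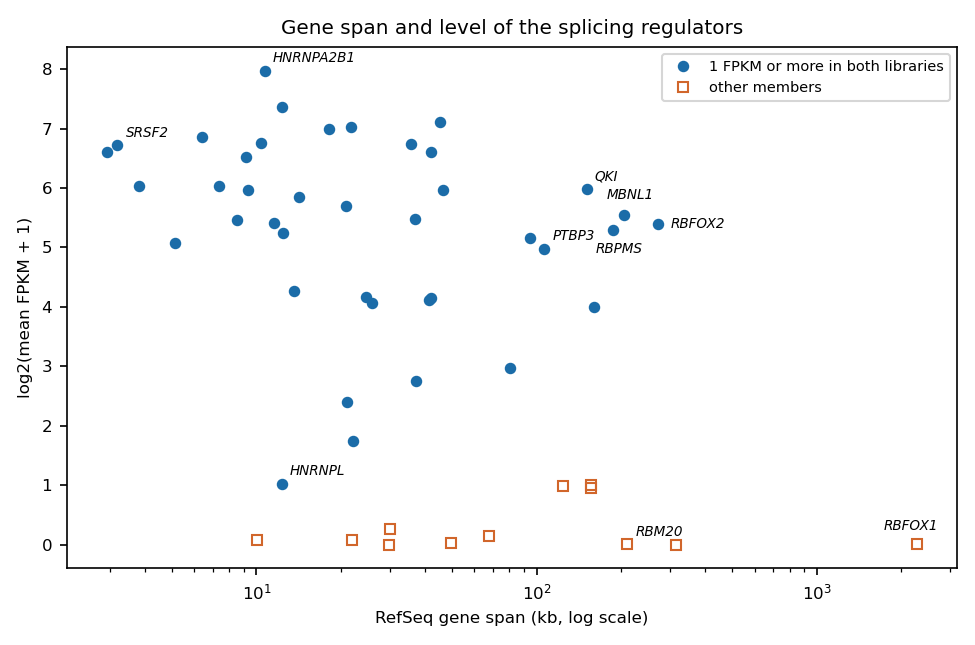
Mean level as log2(FPKM + 1) against the RefSeq gene span in kb (log axis) for the 52 splicing regulators, with filled circles for members at 1 FPKM or more in both libraries and open squares for the others. Short SR and hnRNP genes fill the upper left, and RBFOX2, MBNL1, RBPMS and QKI are long genes at high levels.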

How the data were processed

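TRIzol was used for RNA and the NEBNext Ultra kit for libraries, per the labels' protocols. The submitters' processing notes name TopHat2 2.0.12, HTSeq 0.6.1 and Sscrofa11.1; annotation release, strand setting and filters are not given. The authors deposited FPKM values, 1 column for each library. A wrong gene model changes FPKM, and HTSeq usually drops reads that fit several places or genes.

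Library totals of 35176565 and 32217729 were worked out from the value steps, and each gene was given the shortest length, of 50 to 30000 bp, under which its reads are whole numbers (tolerance 1.2 times the rounding). This held for all 16327 genes above 0, and 11 of 12 mitochondrial genes showed their RefSeq length. Recovered reads may be too few by a whole factor. The steps were tested on simulated data drawn with counting error alone, so spread between libraries beyond counting error was not covered. In a 1 kb gene, 1 read was worth 0.0284 and 0.0310 FPKM. Without molecular identifiers, intervals, floors and the binomial test cover counting error only.

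Symbols came from a gene name table and positions from RefSeq by symbol. For all 33 members with older identifiers, at least 6 of the 10 nearest-numbered identifiers lay on the member's chromosome. The other members, among them HNRNPA2B1, HNRNPK and HNRNPL, were not checked in this way. Levels were summarised as log2(FPKM + 1). Named were every member, the 3 highest and up to 6 undetected genes of each other list, all smooth muscle markers and the highest marker of each other cell type, with SRRM4 and further markers added for their role after their values were seen. The members and lists were chosen with earlier results of these data known. Alternatives changed the detection level, pseudocount, filter, scaling and libraries. Python 3.11.15, pandas 2.3.3 and scipy 1.17.1 were used.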

Additional observations from a re-analysis of the deposited data

How the results depend on the processing

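The count of members at 1 FPKM or more in both libraries was 40. It was 43 at 0.5 FPKM and 37 at 5 FPKM, 39 over RefSeq protein-coding symbols (where 62.5% of all symbols passed), and 41 to 42 when a replicate was left out, because MBNL3, KHDRBS3 and NOVA1 lie at the threshold. The member median of 5.20 on the log2(FPKM + 1) scale became 5.17 with a pseudocount of 0.1, 5.40 over the 47 members above 0 in both libraries and 6.62 after rescaling to TPM. The median of all symbols became 1.998, 3.03 and 3.53 under these settings, below that of the members each time. The member median was 5.19 to 5.22 when a replicate was left out. The number of members whose reads differed between the libraries beyond counting error was 1, also 1 with scaling by the median ratio of genes at 10 FPKM or more, and was 2 when only genes averaging at least 1 FPKM entered, where fewer genes were tested. The 103 other splicing and RNA-binding genes at 1 FPKM numbered 103 at 0.5 FPKM, 95 at 5 FPKM and 103 without either replicate. The 18 genes of the list for smooth muscle splice forms numbered 18 each time. At 1 FPKM in both libraries, 61.5% of all symbols passed, and their share at 0.5 and 5 FPKM is not given. The settings on the other lists and on protein-coding symbols were chosen after seeing the data. Symbols paired through RefSeq were not run, since that table holds no matching identifiers. No paired analysis was possible because the study holds 1 group. Genes with few reads, such as CELF3 and RBM20, are limited by depth, and for CELF4 and CELF6 no limit can be given.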
